A study of Rattus norvegicus with 9 samples.

Results

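Tmem131l, Lrrc30, Slc43a3, Cpa1 and Cd24 are 5 protein-coding genes that receive little attention in muscle. They were taken by symbol from the 30518 rows of the deposited expression tables, and each symbol stood on a single row. They were chosen by their expression values, for separating stimulated muscle from muscle of the incontinence model, or the model from untouched muscle, with no numeric threshold. Their values in those comparisons are therefore given as a description, with no test. All 5 passed the filter on low counts, which left 16256 genes.

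The 9 RNA-seq libraries came from the pubococcygeus, a skeletal muscle that supports the pelvic organs, in female Sprague-Dawley rats. Each of 3 groups held 8 rats and gave 3 libraries. Stimulated rats had the operations of the model and, from 1 week later, pelvic floor electrical stimulation through the vagina for 2 weeks. Sessions lasted 30 min, 5 a week, and used 200 µs pulses at 50 Hz with a current of 20 mA. SUI rats are the model of stress urinary incontinence: after bilateral ovariectomy the vagina was stretched for 4 h with an 8 Fr balloon holding 3 mL of saline under a 120 g weight, and nothing was done afterwards. The names of these SUI libraries read sham, while their titles describe the full model. The titles are followed here, and the names do not say what was sham. If the libraries came from rats with sham surgery or sham stimulation, every SUI value would have another meaning. Blank rats had neither surgery nor treatment. Stimulated and SUI rats thus share the ovary removal and the distension, whose effects cannot be told apart. By the titles, no group had the electrode without current. The labels do not say which rats gave which library, so p-values measure the spread between libraries.

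Libraries held 50833480 to 147650284 counts, with a median of 110699836. Blank replicate 1 was the shallowest and stood apart, with a median correlation to the other libraries of 0.908, against 0.940 to 0.961 for the other 8. Its share of mitochondrially encoded transcripts was 32.9%, and 13.4% to 17.7% in the rest. Summed counts of 16 skeletal muscle fibre markers ran from 175454 to 223030 CPM over all 9 libraries. Values are given as CPM (depth-scaled counts) after TMM composition scaling, unless FPKM is named, except that marker sums are unscaled. FPKM is also divided by gene length and so allows levels of different genes to be compared.

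The 5 genes belong to unrelated protein families. TMEM131L is a membrane protein that was reported, in human thymocytes, to restrain canonical Wnt signalling, and its relative TMEM131 takes part in collagen secretion in worms and human cells. LRRC30 is named for its leucine-rich repeats, a fold that binds other proteins, and no role is given for it here. SLC43A3 carries purine nucleobases across the plasma membrane, while its relatives SLC43A1 and SLC43A2 carry large neutral amino acids. CPA1 is carboxypeptidase A1, a digestive enzyme that pancreatic acinar cells secrete as a proenzyme. CD24 is a short, heavily glycosylated protein on a lipid anchor, known from B cells, neutrophils and epithelia, and a ligand of P-selectin and of Siglec-10.

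Their sites on mRatBN7.2 are on 5 chromosomes. Tmem131l (ENSRNOG00000009837) spans chromosome 2, 169258289 to 169391711, minus strand, and Lrrc30 (ENSRNOG00000030389) chromosome 9, 107625182 to 107626084, minus strand. Slc43a3 (ENSRNOG00000061768) spans chromosome 3, 70009313 to 70029749, plus strand, and Cpa1 (ENSRNOG00000010725) chromosome 4, 59257417 to 59263544, plus strand. Cd24 (ENSRNOG00000000321) lies on chromosome 20, 47073512 to 47079662, plus strand. No row with another identifier overlaps any of the 5 spans in the deposited tables. The Lrrc30 span is 903 bp long in these tables.

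The 250 bases before the annotated start were read for the 4 members present in the RefSeq promoter table on GRCr8, which are shown to let their composition and motifs be compared. They lie at chr2:171689734-171689983 (Tmem131l, minus strand), chr9:115072932-115073181 (Lrrc30, minus strand), chr4:60224551-60224800 (Cpa1, plus strand) and chr20:48656227-48656476 (Cd24, plus strand). They are written 5′ to 3′ on the strand of the gene, with motif matches in capitals.
Tmem131l: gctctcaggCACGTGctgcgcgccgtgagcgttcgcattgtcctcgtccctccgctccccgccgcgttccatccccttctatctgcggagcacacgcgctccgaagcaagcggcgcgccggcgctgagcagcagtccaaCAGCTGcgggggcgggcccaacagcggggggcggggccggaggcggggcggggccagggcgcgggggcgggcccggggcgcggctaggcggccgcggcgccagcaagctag
Lrrc30: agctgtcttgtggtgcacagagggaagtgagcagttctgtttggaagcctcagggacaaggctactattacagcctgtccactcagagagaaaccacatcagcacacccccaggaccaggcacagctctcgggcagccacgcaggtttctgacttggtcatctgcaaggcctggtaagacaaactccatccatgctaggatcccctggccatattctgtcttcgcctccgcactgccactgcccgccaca
Cpa1: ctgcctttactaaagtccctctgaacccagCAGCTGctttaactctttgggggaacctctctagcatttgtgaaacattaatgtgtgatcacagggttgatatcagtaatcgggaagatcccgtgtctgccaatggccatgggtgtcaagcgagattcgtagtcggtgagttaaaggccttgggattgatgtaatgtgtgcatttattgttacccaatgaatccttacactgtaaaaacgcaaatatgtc
Cd24: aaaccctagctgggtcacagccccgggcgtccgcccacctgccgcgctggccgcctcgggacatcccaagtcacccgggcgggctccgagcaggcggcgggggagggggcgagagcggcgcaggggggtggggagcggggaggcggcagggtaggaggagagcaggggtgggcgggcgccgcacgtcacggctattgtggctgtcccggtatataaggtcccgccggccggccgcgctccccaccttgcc

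The windows of Tmem131l and Cd24 were rich in G and C, at 77.2% and 75.6%, above 97.8% and 96.9% of the 33469 windows of the table. Lrrc30 had 56.4% and Cpa1 44% G and C. Motifs were searched on both strands. The E-box CACGTG, which clock factors among others bind, stood once, 241 bases before the start of Tmem131l, and 5.59% of all windows hold it. The E-box CAGCTG, bound by myogenic factors, stood 111 bases before the start of Tmem131l and 220 before that of Cpa1, against 12% of all windows. TGTTTAC (FoxO factors, in 3.21% of all windows), TGANTCA (AP-1, 6.34%), GGAATG (TEAD factors, 12.1%) and AGGTCA (nuclear receptors, 14.1%) did not occur in the 4 windows. No match overlapped another. A match is a description of the letters, and the Cd24 window lies inside RefSeq's whole span of that gene on GRCr8, chromosome 20, 48655549 to 48661786, and the Tmem131l window overlaps the first bases of the span of Tmem131l, which starts at 171689774 on its strand.

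Per gene length, Cd24 had the highest mean of the 5 in every group, at 20.4 FPKM in stimulated, 56 in SUI and 23.8 in blank muscle, and the order of the other 4 differed between groups. In stimulated muscle Tmem131l (5.71 FPKM) was followed by Cpa1 (2.80), Slc43a3 (2.51) and Lrrc30 (2.24). In SUI muscle Lrrc30 (24.2) was followed by Slc43a3 (7.71), Tmem131l (2.43) and Cpa1 (0.445). In blank muscle Tmem131l (5.30) was followed by Lrrc30 (5.10), Slc43a3 (2.23) and Cpa1 (1.10). Cd24 averaged 33.4 FPKM over the 9 libraries, above 95.2% of the 21690 rows with any count. Lrrc30 averaged 10.5 FPKM and Cpa1 1.45 FPKM, above 86.3% and 58.4% of rows. Tmem131l averaged 4.48 FPKM and Slc43a3 4.15 FPKM. Tmem131l and Lrrc30 in blank muscle, and Cpa1, Slc43a3 and Lrrc30 in stimulated muscle, differed by less than their SDs, and Lrrc30 and Slc43a3 in SUI muscle by less than the SD of Lrrc30 (21.6 FPKM).

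**Figure D1:**
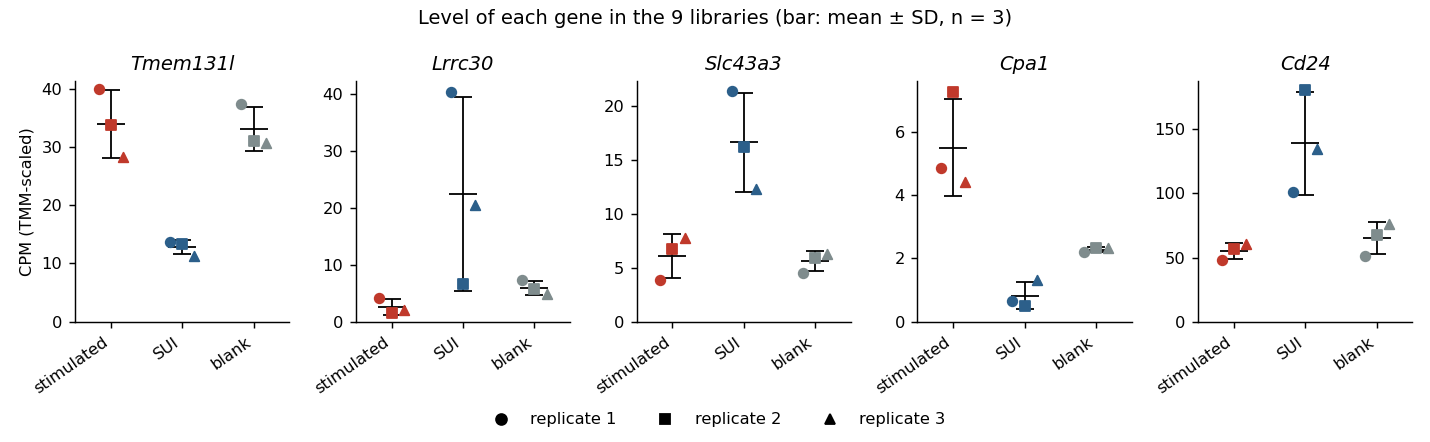
Level of the 5 genes, one panel each, as TMM-scaled CPM in stimulated, SUI and blank libraries (points, with the marker shape giving the replicate; bars show mean ± SD, n = 3). SUI libraries lie below the others for Tmem131l and Cpa1 and above them for Slc43a3 and Cd24, and the SUI libraries of Lrrc30 spread from 6.53 to 40.3 CPM.

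Tmem131l and Cpa1 were lowest in the SUI group. Tmem131l measured 39.9, 33.7 and 28.3 CPM in stimulated muscle, 13.6, 13.4 and 11.3 in SUI muscle and 37.4, 31.1 and 30.7 in blank muscle. All SUI libraries lay below all others, while the stimulated and blank libraries overlapped. The group means were 34.0 ± 5.82 CPM after stimulation, 12.8 ± 1.26 in SUI and 33.1 ± 3.76 in blank (SD, n = 3 each). The log2 fold change was 1.41 ± 0.19 (SE) for stimulated over SUI and -1.37 ± 0.19 for SUI over blank, as fitted by edgeR. Tmem131l was the most even member within SUI, with an SD of 9.87% of the mean.

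Cpa1 measured 4.86, 7.27 and 4.41 CPM in stimulated muscle, 0.655, 0.497 and 1.32 in SUI muscle and 2.20, 2.32 and 2.33 in blank muscle. The 3 groups did not overlap, with stimulated highest and SUI lowest. These values rest on 566 to 1037 counts in the stimulated libraries, 55 to 128 in SUI and 83 to 300 in blank. The means were 5.51 ± 1.54 CPM after stimulation, 0.823 ± 0.434 in SUI and 2.28 ± 0.0748 in blank. The log2 fold change was 2.75 ± 0.40 for stimulated over SUI and -1.48 ± 0.38 for SUI over blank. Without SUI replicate 3, the SUI library with the most Cpa1, these became 3.26 and -1.98.

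Lrrc30, Slc43a3 and Cd24 ran the other way and were highest in the SUI group. Lrrc30 measured 4.09, 1.50 and 2.08 CPM in stimulated muscle, 40.3, 6.53 and 20.4 in SUI muscle and 7.31, 5.79 and 4.89 in blank muscle. The stimulated libraries lay below all others, but SUI replicate 2 fell inside the blank range. The means were 2.55 ± 1.36 CPM after stimulation, 22.4 ± 17 in SUI and 5.99 ± 1.22 in blank, and the SUI group was the most uneven of any member, with an SD of 75.8% of its mean. The log2 fold change was -3.13 ± 0.62 for stimulated over SUI and 1.91 ± 0.59 for SUI over blank, and without SUI replicate 1 these were -2.39 and 1.16.

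Slc43a3 measured 3.84, 6.69 and 7.76 CPM in stimulated muscle, 21.4, 16.2 and 12.3 in SUI muscle and 4.55, 5.93 and 6.28 in blank muscle. All SUI libraries lay above all others, and stimulated and blank libraries overlapped. The means were 6.10 ± 2.03 CPM after stimulation, 16.6 ± 4.58 in SUI and 5.59 ± 0.911 in blank. The log2 fold change was -1.45 ± 0.31 for stimulated over SUI and 1.57 ± 0.31 for SUI over blank.

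Cd24 measured 47.9, 56.3 and 60.2 CPM in stimulated muscle, 101, 181 and 135 in SUI muscle and 51.4, 67.6 and 76.5 in blank muscle. Again every SUI library lay above every other library, with overlap between stimulated and blank. The means were 54.8 ± 6.27 CPM after stimulation, 139 ± 40.3 in SUI and 65.2 ± 12.8 in blank. The log2 fold change was -1.34 ± 0.26 for stimulated over SUI and 1.09 ± 0.25 for SUI over blank. Among the 3 genes that were high in SUI, the highest SUI library differed. It was replicate 1 for Lrrc30 and Slc43a3 and replicate 2 for Cd24. In bulk muscle, fewer cells of a type and less RNA per cell cannot be told apart for any of these genes.

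Set against all genes, separation of this kind was not rare. Stimulated libraries lay wholly above SUI libraries for 2 of the 5 members and for 9.52% of all tested genes, and wholly below for 3 of the 5 and for 9.28%. SUI libraries lay wholly above blank libraries for 2 of the 5 and for 7.34% of genes, and wholly below for 2 of the 5 and for 7.77%. SUI libraries stood above both other groups for Slc43a3 and Cd24 and for 3.46% of genes, and below both for Tmem131l and Cpa1 and for 3.15%. Because the members were chosen for such separation, nothing is read from these counts. By size, 0.547% of genes had a stimulated over SUI log2 fold change as large as that of Lrrc30 in either direction, 0.781% as large as that of Cpa1, 4.36% to 5.33% as large as those of the other 3. With edgeR's quasi-likelihood test and Benjamini-Hochberg adjustment, 2 of the 16256 genes passed the threshold of 0.05 in stimulated over SUI (0.0123%) and 0 in SUI over blank (0%). At an unadjusted p under 0.05 there were 1300 and 1329 genes, DESeq2 called 208 and 176, and voom with sample weights 48 and 0.

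**Figure D2:**
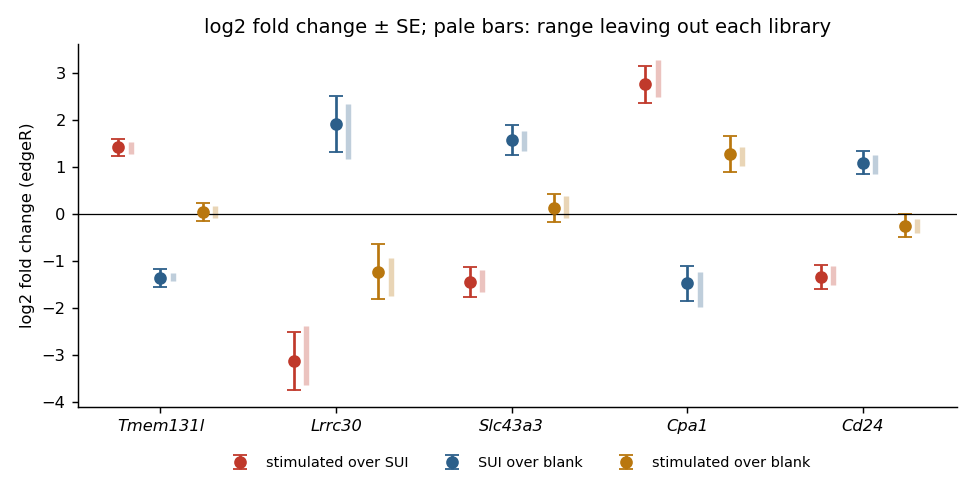
edgeR log2 fold change of each gene in the 3 comparisons (points, with SE as error bars; n = 3 libraries per group) and, as pale bars, the range of values when each library is left out in turn. Stimulated over SUI and SUI over blank point in opposite directions for each gene and share the SUI libraries, and stimulated over blank lies near 0 for Tmem131l, Slc43a3 and Cd24 and away from it for Cpa1 and Lrrc30.

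Whether stimulated muscle differed from untouched muscle is a comparison that the choice of genes did not use, although it shares its libraries with those that did. Cpa1 was 2.41 times as high after stimulation as in blank, with a log2 fold change of 1.27 ± 0.38, higher in 3 of 3 libraries than in any blank library. Over all genes tested it did not pass (edgeR adjusted p = 0.898). Lrrc30 was at 0.426 times its blank level, with a log2 fold change of -1.23 ± 0.58 and no overlap between the groups (edgeR adjusted p = 0.898). Stimulated libraries lay wholly above blank ones for 7.9% of genes and wholly below for 4.72%. The remaining members overlapped between the groups, with log2 fold changes of 0.04 ± 0.19 for Tmem131l, 0.12 ± 0.30 for Slc43a3 and -0.25 ± 0.25 for Cd24 and edgeR adjusted p of 0.978, 0.951 and 0.900. With these standard errors, a small change could not be detected. In this comparison edgeR called 1 of 16256 genes (0.00615%), DESeq2 21 and voom 1, and 613 had an unadjusted p under 0.05.

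The genes whose log2 CPM followed each member most closely over the 9 libraries were sought among 11249 tested genes with a mean of at least 1 CPM. The Pearson correlations given here describe 9 libraries that fall into 3 groups, share their depth and scaling, and carry no test. The genes named were picked for following a member over these libraries, so a shared library order or group separation largely follows from that choice. Closest to Tmem131l were Hs3st5, a heparan sulfate sulfotransferase gene (r = 0.982), Nr1d2, which encodes the circadian repressor REV-ERB beta (r = 0.970), and Wdfy2 (r = 0.955). Nr1d2 measured 99.7, 85.1 and 78.7 CPM in stimulated muscle, 49.9, 44.5 and 46.2 in SUI muscle and 117, 81.9 and 79.4 in blank muscle, so its SUI libraries also lay below all others.

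Closest to Lrrc30 were C1h10orf88 (r = 0.981), Fbxo32, the gene of the muscle ubiquitin ligase atrogin-1 (r = 0.966), and Kdm3a, a histone demethylase gene (r = 0.959). Fbxo32 shared the uneven SUI values of Lrrc30, at 25, 14.9 and 22.6 CPM in stimulated muscle, 583, 74.8 and 138 in SUI muscle and 87.5, 51.4 and 33.7 in blank muscle. In both genes SUI replicate 1 was highest and SUI replicate 2 lay within the blank range.

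Closest to Slc43a3 were Heatr5b (r = 0.962), Cuedc2 (r = 0.955) and Mettl1, a tRNA methyltransferase gene (r = 0.945). Their differences were smaller than that of Slc43a3, with log2 fold changes of -0.42 ± 0.20, -0.39 ± 0.17 and -0.91 ± 0.23 for stimulated over SUI. Closest to Cd24 were Khdc4 (r = 0.964), Pigm, a mannosyltransferase gene of glycolipid anchor synthesis (r = 0.938), and Myf6, a myogenic transcription factor gene (r = 0.937). Myf6 averaged 69.4 ± 4.61 CPM after stimulation, 359 ± 118 in SUI and 73.7 ± 37.2 in blank.

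Closest to Cpa1 were the collagen genes Col6a6 (r = 0.990) and Col15a1 (r = 0.969) and the amino acid transporter gene Slc36a4 (r = 0.968). Col6a6 measured 15.3, 27.7 and 13.2 CPM in stimulated muscle, 2.75, 2.42 and 6.02 in SUI muscle and 9.72, 8.72 and 9.63 in blank muscle. As in Cpa1, stimulated replicate 2 and SUI replicate 3 were the highest of their groups and the 3 groups did not overlap. Because Col6a6 was picked for its correlation to Cpa1 in the same libraries, nothing further is read from this likeness.

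**Figure D3:**
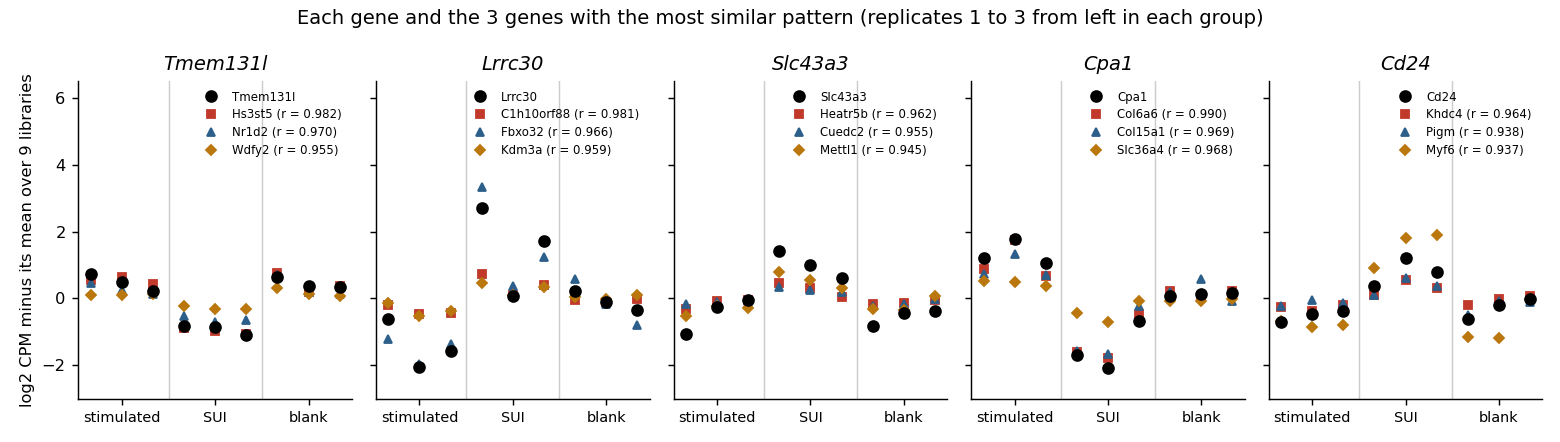
Log2 CPM of each gene (black) and of the 3 genes with the highest Pearson correlation to it (colours), each minus its own mean over the 9 libraries, with replicates 1 to 3 from left to right in each group. Fbxo32 has the same uneven SUI points as Lrrc30, and Col6a6 stays close to Cpa1.

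Relatives of the members did not all share their pattern. Tmem131, the closest relative of Tmem131l, averaged 10.2 ± 0.555 FPKM after stimulation, 9.83 ± 1.25 in SUI and 9.62 ± 0.325 in blank, with log2 fold changes of 0.22 ± 0.19 for stimulated over SUI and -0.21 ± 0.19 for SUI over blank (edgeR adjusted p = 0.846 and 0.737). Among 19 measured genes of collagen export, the process assigned to the TMEM131 family, 7 had a positive log2 fold change for stimulated over SUI and 12 a negative one, with a median of -0.15 against 0.02 for all genes. For SUI over blank the split was again 7 to 12, and the median of -0.13 turned positive when scaled by library totals alone. Sec24d, a coat protein gene for large cargo, was at 14.5 ± 3.26 CPM after stimulation and 7.47 ± 0.769 in SUI (edgeR adjusted p = 0.326), and Lman1, a cargo receptor gene, at 18.4 ± 0.455 against 32.2 ± 3.94 (edgeR adjusted p = 0.418). In SUI over blank Sec24d (-0.74 ± 0.23) and Creb3l2 (-0.60 ± 0.26), a transcription factor gene of the secretory route, had the smallest p of that list. Canonical Wnt genes were spread around 0 in both comparisons, 11 of 22 positive for stimulated over SUI (median -0.04) and 10 of 22 for SUI over blank (median -0.05, positive when scaled by library totals alone). Those with the smallest p were Axin1 (-0.35 ± 0.18) and Rnf43 (-1.89 ± 0.99), negative regulators of the pathway, for stimulated over SUI, and Nkd2 (-0.83 ± 0.36) and Tcf7l1 (-0.92 ± 0.43) for SUI over blank.

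Of the other genes named for leucine-rich repeats, 52 of 67 were tested. Their median log2 fold change was 0.04 for stimulated over SUI and -0.10 for SUI over blank, against 0.02 and 0.01 for all genes, and both medians changed sign when scaled by library totals alone. Lrrc8d (0.61 ± 0.23), a volume-regulated anion channel subunit gene, and Lrrc1 (0.82 ± 0.33) had the smallest p for stimulated over SUI, and Lrrc74b (-1.78 ± 0.64) and Lrrc59 (0.58 ± 0.23) for SUI over blank. None of these 4 differences was as large as that of Lrrc30 in the same comparison.

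Slc43a1 and Slc43a2 were higher in SUI on average but uneven. Slc43a1 averaged 6.87 ± 0.914 FPKM after stimulation, 18.2 ± 11.6 in SUI and 6.56 ± 3.86 in blank, and Slc43a2 6.11 ± 0.688, 13.1 ± 11.8 and 5.13 ± 2.07 FPKM in the same groups. Their edgeR adjusted p was 0.533 and 0.706 for stimulated over SUI and 0.549 and 0.588 for SUI over blank. As for Slc43a3, stimulated libraries lay wholly below SUI libraries for Slc43a1, at 21.7 ± 3.05 against 49.1 ± 23.7 CPM. The same held for 9.28% of all tested genes. In the list of purine transport and salvage, 14 of 30 tested genes were positive for stimulated over SUI (median -0.05) and 20 of 30 for SUI over blank (median 0.19). Slc29a2, a nucleoside transporter gene, stood first in stimulated over SUI, at 8.22 ± 3.44 CPM after stimulation and 23.1 ± 9.52 in SUI (-1.49 ± 0.42, edgeR adjusted p = 0.446). Prps2 (-1.15 ± 0.29) and Ppat (-0.68 ± 0.19), 2 genes of purine synthesis, were lower in SUI than in blank without overlap (edgeR adjusted p = 0.434 and 0.465). They were the only 2 of the 30 to lie wholly lower, while 5 lay wholly higher. Over all tested genes the shares were 7.77% and 7.34%.

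Slc43a3 has also been described in endothelium. The median of endothelial markers had the opposite sign to Slc43a3 for stimulated over SUI and the same sign for SUI over blank. For stimulated over SUI 11 of 15 were positive with a median of 0.30 (0.08 without stimulated replicate 2, 0.17 without SUI replicate 2), where Slc43a3 was lower, led by Robo4 (0.65 ± 0.25) and Cdh5 (0.87 ± 0.35). For SUI over blank 9 of 15 were positive with a median of 0.14 (0.0 without blank replicate 3). Eng (0.82 ± 0.16) and Kdr (-1.54 ± 0.44), both receptor genes, went in opposite directions there. The summed level of the 15 markers was 419 to 669 CPM in stimulated, 379 to 609 in SUI and 321 to 462 in blank libraries, so the groups overlapped in these unscaled sums. The fold changes and the Slc43a3 values are TMM-scaled, and overlap of the sums on that scale was not tested. The part of endothelial content in the Slc43a3 values was not tested.

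Other pancreatic enzymes were at or near 0. Of 23 acinar markers in the tables, 13 had no count in any library, among them Cpb1, and the summed level of the list was 0.670 to 0.720 CPM in stimulated, 0.497 to 0.596 in SUI and 0.275 to 0.735 in blank libraries, so stimulated lay above SUI, as for Cpa1. Cpa1 itself averaged 2.80 ± 1.03 FPKM after stimulation, 0.445 ± 0.198 in SUI and 1.10 ± 0.249 in blank. Ctrb1, a chymotrypsinogen gene, averaged 0.108 ± 0.0334 CPM after stimulation and 0.0377 ± 0.0653 in SUI, and Ctrc, another, 0.196 ± 0.139 in SUI and 0.125 ± 0.119 in blank. Cpa3, the mast cell carboxypeptidase, averaged 2.29 ± 2.22 FPKM after stimulation, 1.07 ± 0.526 in SUI and 1.42 ± 0.507 in blank (edgeR adjusted p = 0.707 for stimulated over SUI). Mast cell markers summed to 10.9 to 32.9, 11.8 to 24.4 and 9.32 to 15.8 CPM in stimulated, SUI and blank libraries and overlapped between all groups. For stimulated over SUI 6 of 9 tested were positive with a median of 0.85, or -0.02 without stimulated replicate 2. For SUI over blank 4 of 9 were positive with a median of -0.29. The smallest p belonged to Cma1 (1.86 ± 0.82) and Hdc (1.21 ± 0.59) for stimulated over SUI. For SUI over blank it belonged to Gata2 (0.76 ± 0.22) and Tpsb2 (0.80 ± 0.50).

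Of 12 tested genes in a list of other metallocarboxypeptidases and the inhibitor latexin, 8 were positive for stimulated over SUI with a median of 0.79, or 0.12 without stimulated replicate 2, and 5 for SUI over blank with a median of -0.05, which turned positive when scaled by library totals alone. Cpz, a secreted carboxypeptidase gene, differed in the direction of Cpa1, at 1.32 ± 1.25 CPM after stimulation against 0.278 ± 0.0736 in SUI, and at 0.278 ± 0.0736 in SUI against 1.22 ± 0.163 in blank (edgeR adjusted p = 0.521 and 0.552). Cpd, a carboxypeptidase gene of the secretory pathway, was lower after stimulation, at 26 ± 3.23 against 41.7 ± 6.63 CPM (edgeR adjusted p = 0.513). Cpa5 reached at most 30 counts and was at 0 in every blank library.

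Fibro-adipogenic and fibroblast markers had fold changes of the same sign as Cpa1. For stimulated over SUI 11 of 11 were positive with a median of 1.49, or 0.80 without stimulated replicate 2, and for SUI over blank 0 of 11 with a median of -0.88, against 0.02 and 0.01 for all genes. Lum averaged 82.1 ± 37.8 CPM after stimulation and 27.8 ± 9.45 in SUI (edgeR adjusted p = 0.290), and Col1a1 340 ± 294 and 62.4 ± 20.5 (adjusted p = 0.332). The summed level of the list was 915 to 3876 CPM in stimulated, 645 to 1213 in SUI and 1147 to 1758 in blank libraries. These sums overlapped between stimulated and SUI, but they lack the TMM scaling of the Cpa1 values. Overlap of the sums on the scale of Cpa1 was not tested, so the 2 cannot be compared in this respect. Stimulated replicate 2 was highest in the marker sum and in Cpa1, but in SUI the marker sum was highest in replicate 1 and Cpa1 in replicate 3. The part of connective tissue cells in the Cpa1 values was not tested.

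**Figure D4:**
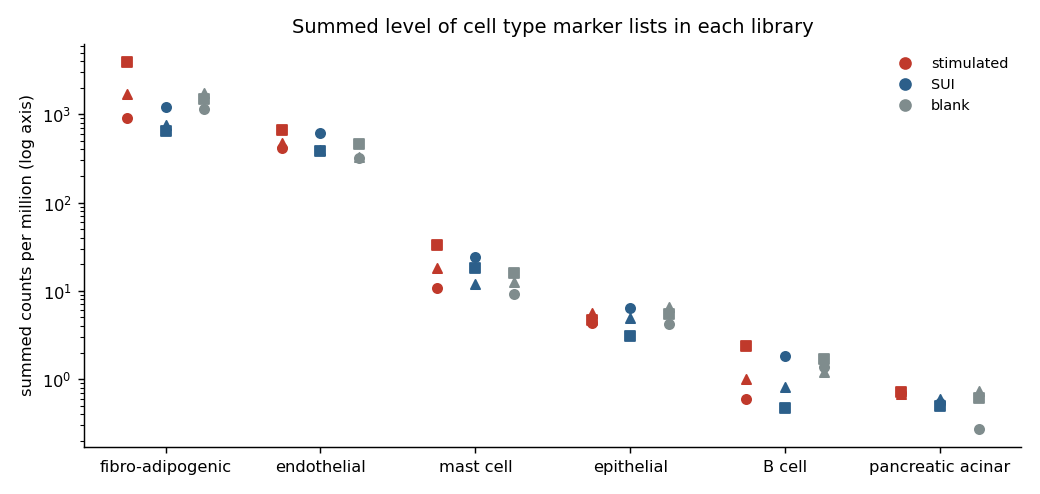
Summed CPM of library total (log axis) of 6 marker lists in stimulated, SUI and blank libraries, with circles, squares and triangles for replicates 1, 2 and 3. Pancreatic acinar markers stay below 1 CPM in every library, and in these unscaled sums the groups overlap for fibro-adipogenic, endothelial, mast cell, epithelial and B cell markers. The member levels are TMM-scaled, so their overlap cannot be compared with that of the sums.

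For Cd24, markers of B cells, epithelia and neutrophils, cells known to carry it, were low, while those of red cells were not. B cell markers summed to 0.596 to 2.36 CPM in stimulated, 0.470 to 1.85 in SUI and 1.21 to 1.69 in blank libraries, and epithelial markers to 4.36 to 5.63, 3.05 to 6.37 and 4.23 to 6.60. Neutrophil markers summed to 4.20 to 5.5 CPM in stimulated, 5.69 to 7.90 in SUI and 2.03 to 7.01 in blank libraries. Stimulated thus lay below SUI in these sums, which lack the TMM scaling of the Cd24 values. On that scale the sums were not compared, and 0 of the 6 tested neutrophil genes lay wholly lower in stimulated than in SUI libraries. Of these lists 3, 7 and 6 genes were tested. For stimulated over SUI 2, 3 and 0 of them were positive, with medians of 0.83, -0.04 and -0.79. For SUI over blank 0, 3 and 3 were positive, with medians of -1.22, -0.64 and 0.27. Under the alternatives the sign varied for the B cell median in stimulated over SUI, the neutrophil median in SUI over blank and the epithelial median in both. Blnk, a B cell adaptor gene, was at 0.628 ± 0.234 CPM after stimulation and 0.256 ± 0.0936 in SUI (edgeR adjusted p = 0.552), opposite to Cd24. Epcam (0.291 ± 0.107 against 0.107 ± 0.0565 CPM) was opposite too, and S100a9, a neutrophil gene, went the way of Cd24 at 0.323 ± 0.2 against 0.856 ± 0.572 CPM. Red cell markers summed to 296 to 1830 CPM in stimulated, 173 to 844 in SUI and 250 to 922 in blank libraries. Their median was 1.08 for stimulated over SUI, but -0.09 without stimulated replicate 3, the library at 1830 CPM, and -1.03 for SUI over blank. The part of these cells in the Cd24 values was not tested.

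Satellite cell and newly formed fibre genes were near 0 as a group for stimulated over SUI, with 9 of 14 positive and a median of 0.02 that turned negative when scaled by library totals alone, and 10 of 14 were positive for SUI over blank with a median of 0.25. Myh8, the perinatal myosin gene, was at 453 ± 51.8 CPM after stimulation and 244 ± 81.8 in SUI (edgeR adjusted p = 0.599), and Myog, a myogenic factor gene, at 11 ± 3.66 and 23.2 ± 23.3. Among the binding partners and kinases of CD24, 9 of 12 were positive for stimulated over SUI with a median of 0.06, negative when scaled by library totals alone. Leaving out each library in turn, that median lay between -0.39 and 0.48. For SUI over blank 4 of 12 were positive with a median of -0.20. Siglec10, the gene of a CD24 receptor, was at 0.406 ± 0.488 CPM in SUI and 1.77 ± 1.06 in blank (-2.11 ± 1.08, edgeR adjusted p = 0.610), and Cntn2 (0.87 ± 0.33) and Fyn (0.63 ± 0.28) had the smallest p for stimulated over SUI.

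Of the muscle fibre markers 15 of 16 were positive for stimulated over SUI (median 0.15) and 4 of 16 for SUI over blank (median -0.08, positive when scaled by library totals alone). Of the smooth muscle markers 7 of 8 and 1 of 8 were positive (medians 0.19 and -0.35), and of the adipocyte markers 4 of 8 and 6 of 8 (medians 0.02 and 0.44, the first negative when scaled by library totals alone). Leaving out each library in turn, the adipocyte median lay between -1.23 and 0.71 for stimulated over SUI and between -0.07 and 0.93 for SUI over blank. Over the 18 lists together, 255 distinct genes were tested and edgeR called 0 in each comparison. At an unadjusted p under 0.05, 22 were higher and 4 lower in stimulated over SUI, and 10 higher and 20 lower in SUI over blank. DESeq2 called Slc29a2, Col3a1, Sec24d, Col1a1 and Lum in stimulated over SUI and Prps2, Col1a1, Eng and Lmod1 in SUI over blank, and voom with sample weights called Lman1 in stimulated over SUI.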

How the data were processed

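Per the submitters' processing notes, the tools were Bowtie2, DESeq2 1.4.5 and RSEM 1.3.1, and the build was mRatBN7.2. No source states the strand setting. Each deposited expected count is a whole number for 1 gene in 1 library, and the deposited FPKM values are the authors' length-scaled values. The counts may have been rounded up, since 358 values of 1 stand beside an FPKM under 0.001. Gene length, which also lowers FPKM, was not taken into account there. Of repeated symbols the row with the highest mean count kept the name.

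Counts, rounded to whole numbers, were filtered with filterByExpr, scaled by TMM and fitted with edgeR 4.0.16 (quasi-likelihood, robust; R 4.3.3) over all 9 libraries, with Benjamini-Hochberg adjustment over 16256 genes. Standard errors are the size of the log2 fold change over the square root of F. Floors of 3 counts lie at 0.0203 to 0.059 CPM and cover counting error only. Marker sums are CPM of library total. DESeq2 1.42.0 and limma 3.58.1 served as alternatives. The steps were tested on simulated data with 200 changed genes.

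The members and lists were chosen with earlier results of these data known. Named beside the members are the 3 genes most correlated with each (prior count 1), up to 2 genes per list and comparison by smallest p, and close relatives. A gene that this rule also names is not reported here. The genes so named and not described beside the members were Krt7, Ovol1 and Grhl2 (epithelial), Cd22 (B cell), Slc4a1, Hba-a3 and Epb42 (red cell), Cxcr2, Lcn2 and Mpo (neutrophil), Myl11, Tcap, Neb and Tnnt3 (fibre), Smtn and Lmod1 (smooth muscle) and Plin4, Cfd and Retn (adipocyte), with edgeR adjusted p from 0.425 to 0.931. List symbols were matched to the tables directly or through synonyms in RefSeq's GRCr8 gene table. Promoter sequences are RefSeq's, build GRCr8; 4 of 5 members matched.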

Additional observations from a re-analysis of the deposited data

How the results depend on the processing

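The direction of the 5 genes in stimulated over SUI and in SUI over blank was the same under every alternative run. On log2(FPKM + 1), which compresses low values, stimulated over SUI came to 0.97 for Tmem131l and 1.37 for Cpa1, and SUI over blank to -0.89 for Tmem131l and -0.54 for Cpa1. For Tmem131l in SUI over blank, library totals alone gave -1.15 and log2(FPKM + 0.1) gave -1.11. Library totals moved the median of all genes to -0.11 in stimulated over SUI, 0.19 in SUI over blank and 0.09 in stimulated over blank. Leaving out each library gave, for stimulated over SUI, 1.28 to 1.53 for Tmem131l, -3.65 to -2.39 for Lrrc30, -1.66 to -1.20 for Slc43a3, 2.49 to 3.26 for Cpa1 and -1.52 to -1.10 for Cd24. For SUI over blank it gave -1.43 to -1.26, 1.16 to 2.33, 1.33 to 1.75, -1.98 to -1.23 and 0.84 to 1.26 in the same order of genes. For stimulated over blank it gave -0.09 to 0.16, -1.74 to -0.95, -0.09 to 0.37, 1.02 to 1.41 and -0.41 to -0.12. The sign of Tmem131l in stimulated over blank thus changed without stimulated replicate 1 and, within 0.01 of 0, without blank replicate 2 (-0.00) or 3 (-0.01), as it did with voom (-0.05), and that of Slc43a3 without stimulated replicate 3 or blank replicate 1 (-0.02). No member passed the threshold in stimulated over blank under any alternative.

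The number of genes called over the whole table depended on the tool. In stimulated over SUI it was 2 with edgeR, 208 with DESeq2, 48 with voom, 1 with library totals, 1 with the replicate block and 0 with both FPKM fits and with the 6 libraries compared, and 0 to 3 leaving out a library. In SUI over blank it was 0 with edgeR, 176 with DESeq2 and 0 to 1 leaving out a library. In stimulated over blank it was 1 with edgeR, 21 with DESeq2, 0 with the replicate block, log2(FPKM + 1) and the 6 libraries compared, and 0 to 1 leaving out a library. The cause was not tested, except that the 6-library fits have fewer samples. Libraries with the same replicate number showed little likeness, with correlations of deviations from group means from -0.193 to 0.112. These correlations cannot settle whether the numbers pair rats, and the labels do not say. With the replicate block the member values kept their direction, Lrrc30 at -3.0 and 1.59 in the first 2 comparisons.

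Of 54 list medians (18 lists in 3 comparisons), 33 changed sign under at least 1 alternative, and not just those near 0. For stimulated over SUI the red cell median went down to -0.09 (1.08 as fitted), the mast cell median to -0.02 (0.85) and the B cell median to -0.28 (0.83), and for stimulated over blank the neutrophil median reached 0.60 (-0.74). The fibro-adipogenic median stayed between 0.80 and 1.81 for stimulated over SUI and between -1.02 and -0.66 for SUI over blank. The correlations to the members were recomputed with library totals and with log2(FPKM + 0.1), chosen after seeing the data, and fell most for Wdfy2, to 0.770 and 0.748. Groups of 3 libraries allow no test for a single outlying library, and no exact permutation p below 0.1.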
